A study of Mus musculus with 20 samples.

Results

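The GDNF family comprises 4 secreted ligands, 4 co-receptors and 1 signalling receptor, and these 9 genes are described here across the lumbar and sacral dorsal root ganglia (DRG) of mouse embryos. The members were fixed by name: the ligand genes Gdnf, Nrtn (neurturin), Artn (artemin) and Pspn (persephin), the co-receptor genes Gfra1, Gfra2, Gfra3 and Gfra4, and Ret. Each symbol matched 1 Ensembl gene, so 9 of the 37620 genes in the expression table were followed. DRG are the clusters of sensory neurons and glia beside the spinal cord. Whole ganglia came from untreated C57Bl6 embryos of both sexes at E18.5, late in gestation. Each of 10 embryos, 5 male (M1, M3, M5, M7 and M8) and 5 female (F3, F7, F8, F9 and F10), gave 1 RNA sequencing library from its lumbar ganglia (L4-5) and 1 from its L6-S1 ganglia. The L6-S1 ganglia are called sacral, as in the study, although L6 is a lumbar segment by name. The 20 libraries thus formed 4 groups of 5 by level and sex. The comparison of levels asks which transcripts mark the ganglia that hold the sensory neurons of the pelvic organs, and every lumbar library was set against the sacral library of the same embryo.

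A GDNF family ligand binds a GFRα co-receptor, a protein held to the outer membrane by a lipid anchor, and the pair then engages RET, a receptor tyrosine kinase, which passes the signal into the cell. GDNF binds best to GFRα1, neurturin to GFRα2, artemin to GFRα3 and persephin to GFRα4. In the DRG, RET marks several classes of neurons, among them the non-peptidergic nociceptors, which exchange the nerve growth factor receptor TrkA for RET around birth. The ligands are supplied largely by the tissues that the axons reach.

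Expression was deposited as log2 RPKM. This unit divides reads by the length of the gene and by a scaled library size, so that levels can be compared between genes. Reads per library, recovered from the steps of these values, ranged from 19606265 to 39678967, and the 2 mitochondrial ribosomal RNA genes took from 17.8% to 61.1% of them. The scaled size did not follow the read total alone. In a gene of 1 kilobase, 1 read stood for 0.0350 RPKM in lumbar M1 (22839808 reads) and 0.0610 RPKM in lumbar M5 (23960488 reads). The median level was the same in all 20 libraries, at 0.93 log2 RPKM. The 12 pan-neuronal genes (such as Snap25, Uchl1, Isl1 and Pou4f1) were all above the filter of 1 RPKM, while of 10 spinal cord genes and 7 sympathetic neuron genes none was. The sums over these lists were at most 2.42 and 1.20 RPKM in any library. These lists did not go against the labelled tissue. Both libraries of M5, both of F7 and the lumbar library of F8 stood apart. Their mean over the 12 pan-neuronal genes was between 4.63 (sacral F7) and 5.64 log2 RPKM, against 5.80 to 6.50 in the other 15 libraries, and their mitochondrial ribosomal RNA share was at least 43.2%, against at most 39.7% in the others.

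In the mm9 build with GENCODE M1 annotation, Gdnf (ENSMUSG00000022144) spans chr15:7761011-7787575 on the plus strand, Nrtn (ENSMUSG00000039481) chr17:56890748-56896953, Artn (ENSMUSG00000028539) chr4:117598767-117602368 and Pspn (ENSMUSG00000002664) chr17:57138880-57139441, the last 3 on the minus strand. Gfra1 (ENSMUSG00000025089) spans chr19:58310094-58530399, Gfra4 (ENSMUSG00000027316) chr2:130865368-130868824 and Ret (ENSMUSG00000030110) chr6:118101766-118147762, all on the minus strand, and Gfra2 (ENSMUSG00000022103) spans chr14:71289927-71379645 on the plus strand. Gfra3 is ENSMUSG00000024366. All 9 are protein coding, and the values cover the exons of each gene. Gfra1 shares its locus with Gm16277 on the opposite strand, and since the use of strand in counting is not stated, reads of that pair cannot be told apart. The other 8 overlapped no annotated gene.

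RefSeq promoter sequence (GRCm38.p6) was at hand for 6 of the 9 genes. The 250 bases before the start of Gfra4 and Artn are shown because these members had the lowest p between lumbar and sacral ganglia, each lost in some of the alternative fits given with its values, and those of Gfra1 because it is a co-receptor that did not pass the test. RefSeq lists 2 promoters for Gfra4, and the one farther upstream is shown. Capitals mark E-boxes (CANNTG, the same on both strands), the motif bound by basic helix-loop-helix factors. All 3 are read 5′ to 3′ on the minus strand, from chr2:131043089-131043338 (Gfra4), chr19:58455399-58455648 (Gfra1) and chr4:117929764-117930013 (Artn).
Gfra4: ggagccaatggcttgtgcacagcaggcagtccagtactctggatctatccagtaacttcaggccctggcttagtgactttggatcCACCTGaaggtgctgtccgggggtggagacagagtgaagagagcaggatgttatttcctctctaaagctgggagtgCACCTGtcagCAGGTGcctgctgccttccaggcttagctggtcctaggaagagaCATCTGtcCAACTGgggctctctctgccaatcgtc
Gfra1: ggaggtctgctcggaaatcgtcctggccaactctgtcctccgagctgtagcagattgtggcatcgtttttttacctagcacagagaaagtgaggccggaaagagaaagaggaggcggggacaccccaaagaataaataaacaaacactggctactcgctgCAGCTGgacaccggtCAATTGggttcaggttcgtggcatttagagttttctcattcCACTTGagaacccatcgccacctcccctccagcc
Artn: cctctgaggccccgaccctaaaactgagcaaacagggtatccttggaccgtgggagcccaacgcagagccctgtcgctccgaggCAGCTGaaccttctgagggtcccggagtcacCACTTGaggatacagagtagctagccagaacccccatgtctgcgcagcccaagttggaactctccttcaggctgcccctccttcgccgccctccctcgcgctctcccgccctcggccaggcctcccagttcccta
The Gfra4 window held 5 E-boxes, a number reached by 1.15% of the 32851 mouse promoter windows of this length, and 3 of the 5 read CACCTG or its complement CAGGTG. The other Gfra4 window, 406 bases downstream, held 2. The Gfra1 window held 3 (12.2% of windows hold as many or more) and the Artn window 2 (31.8%). The RUNX core TGTGGT, searched on both strands, was in none of the 3 printed windows, once in the other Gfra4 window and in 14.0% of all windows, and the GC box GGGCGG was in the Artn window only, with 2 matches, and in 32.7% of all. These are matches of letters and were not tested as binding sites.

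The receptors were expressed at moderate levels and the ligands were close to absent. In order of the mean over all libraries, Ret was highest at 35.7 RPKM (geometric mean), followed by Gfra2 at 21.9, Gfra3 at 19.9, Gfra1 at 4.63 and Gfra4 at 2.34 RPKM. Each of the 4 ligands had a geometric mean of at most 0.105 RPKM with a library without reads set to 0.5 reads, and none reached the filter in any group. So 5 of the 9 members, the 5 receptors, entered the test across genes. Over the 10 embryos Ret exceeded Gfra2 by 0.70 ± 0.28 log2 (SD, n = 10, exact sign-flip permutation test, two-sided, adjusted over 8 neighbouring pairs, p = 0.00521), Gfra3 exceeded Gfra1 by 2.10 ± 0.15 (adjusted exact p = 0.00521), Gfra1 exceeded Gfra4 by 0.98 ± 0.65 (adjusted exact p = 0.0117) and Gfra4 exceeded Pspn by 4.48 ± 1.48 (adjusted exact p = 0.00521). The levels of Gfra2 and Gfra3 were not separated beyond their spread (0.14 ± 0.20, adjusted exact p = 0.0844), nor were those of any 2 neighbours among the ligands, for which the adjusted exact p was at least 0.104. The smallest unadjusted p that 10 embryos allow in this test is 0.00195. The pairs were picked by the order of these same means, so the sign of each difference was fixed before the test. Gfra4 and Pspn lie on either side of the filter, and their difference depends on the 0.5 reads set for a library without reads.

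**Figure D1:**
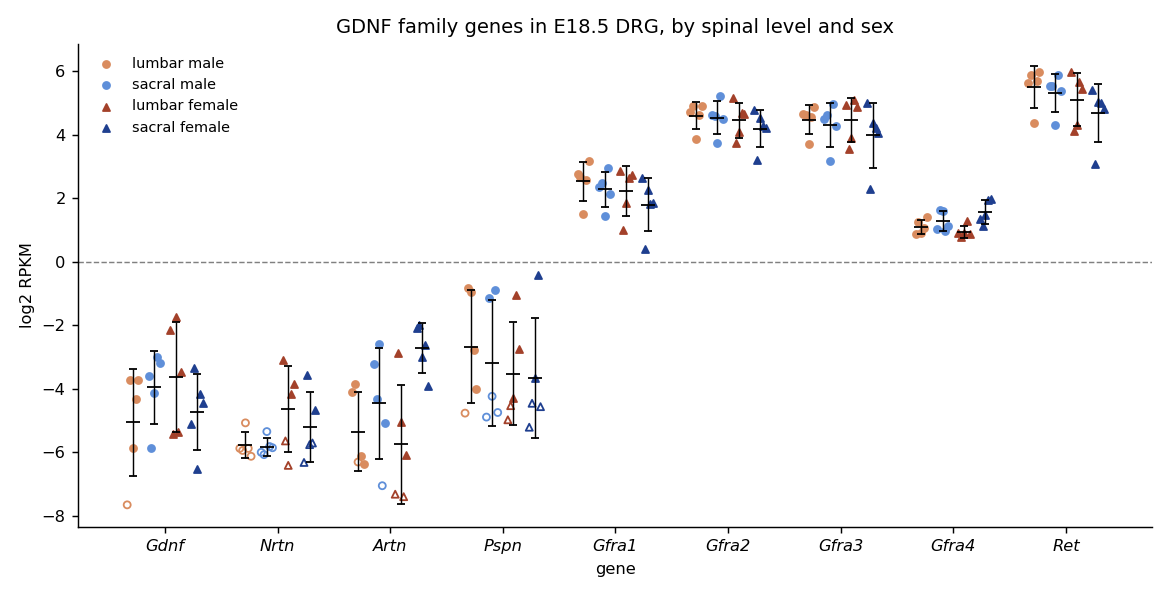
Level of each of the 9 genes (log2 RPKM, vertical axis) in each of the 20 libraries, by group (colours), with the mean and SD of each group of 5 in black. Open symbols are libraries with 0 reads, drawn at the level of 0.5 reads, and the dashed line is 1 RPKM. The 5 receptors lie above that line and the 4 ligands below it in every group mean.

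Gdnf, the ligand that gives the family its name and a survival factor for motor and sensory neurons, had between 0 and 44 reads in a library. In lumbar males it was at 0 reads in M1, where 3 reads would be the upper limit at 95% confidence, and at 0.0761 RPKM in M3, 0.0174 in M5, 0.0498 in M7 and 0.0755 in M8. In lumbar females it was at 0.224 RPKM in F3, 0.0234 in F7, 0.303 in F8, 0.0245 in F9 and 0.0912 in F10. The sacral males had 0.0823 (M1), 0.0174 (M3), 0.0575 (M5), 0.124 (M7) and 0.111 RPKM (M8), and the sacral females 0.0293 (F3), 0.0988 (F7), 0.0108 (F8), 0.056 (F9) and 0.0459 RPKM (F10). The levels overlapped, and the 3 highest values were those of lumbar F8, lumbar F3 and sacral M7. The same 3 libraries had the highest sums over 12 skeletal muscle genes, at 689, 301 and 429 RPKM against at most 165 in the other 17, and whether muscle in the dissection contributed to the Gdnf reads was not tested. The difference between levels was 0.01 ± 2.67 log2 (SD, n = 10), and sacral Gdnf was the higher in 6 of 10 embryos (two-sided exact sign-flip permutation test, p = 0.996).

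Artn, the ligand of GFRα3 and a guidance and survival factor for sympathetic and sensory axons, was the 1 of 4 ligands with an unadjusted p under 0.05 between levels in the exact sign-flip test. The lumbar males had 4, 5, 0, 1 and 1 reads (M1, M3, M5, M7 and M8) and the sacral males 8, 4, 8, 0 and 2. The lumbar females had 0, 8, 3, 0 and 1 reads (F3, F7, F8, F9 and F10) and the sacral females 22, 14, 8, 10 and 4. All 5 females and 3 of the 5 males thus had the higher level in the sacral library, with M3 and M7 the exceptions, although the 2 sets of libraries overlapped. Pooled over the libraries of a level, Artn stood at 0.0319 RPKM (23 reads, 95% exact Poisson interval 0.0202 to 0.0479) in lumbar and 0.12 RPKM (80 reads, 0.0949 to 0.149) in sacral DRG, intervals that cover counting error only. On the log2 scale the sacral library was higher by 1.96 ± 2.08 (SD, n = 10), a value that depends on the 0.5 reads set for a library without reads (two-sided exact sign-flip permutation test, p = 0.0176). With 0.1 added to each RPKM in place of that setting the difference was 0.67 and the exact p = 0.00977. Among all 29049 genes with reads, Artn did not pass (limma without a filter, adjusted p = 0.0734), and without M5 and F7, the embryos whose libraries stood apart, the sign-flip p was 0.0547.

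Pspn and Nrtn were at the edge of detection. Pspn, the smallest member of the family, had 26 reads over the lumbar and 24 over the sacral libraries, with at most 9 in a library and none in 9 of 20. Sacral minus lumbar was -0.33 ± 1.41 log2 (SD, n = 10, exact sign-flip p = 0.496). Its reads were uneven among embryos, with 8 and 7 in the libraries of M3 and 8 and 9 in those of F9, against 0 in both libraries of M1, F3 and F7. Nrtn had 8 reads over the lumbar and 3 over the sacral libraries and none in any male library. Its difference was -0.31 ± 1.39 log2 (exact sign-flip p = 0.523). At this depth a library without reads allows up to 0.179 RPKM of Nrtn (lumbar M5) and 0.319 RPKM of Pspn (sacral M5). A library at 0 reads thus does not show absence below these levels.

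Among the co-receptors, Gfra4 was higher in sacral than in lumbar DRG and the other 3 did not differ detectably between the levels. Gfra4 encodes the receptor of persephin and was the lowest of the 5 receptors, with 66 to 222 reads per library. In lumbar males it stood at 1.83 RPKM (M1), 2.39 (M3), 1.86 (M5), 2.10 (M7) and 2.65 (M8), and in sacral males at 2.07, 3.13, 3.03, 1.95 and 2.21 RPKM in the same order. In lumbar females it stood at 1.87 RPKM (F3), 1.71 (F7), 1.89 (F8), 2.42 (F9) and 1.82 (F10), and in sacral females at 2.57, 2.20, 2.79, 3.91 and 3.92 RPKM. The sacral library was the higher in 8 of 10 embryos, in all 5 females and in 3 of 5 males, with M7 and M8 the exceptions, and the ranges of the levels overlapped. The difference was 0.41 ± 0.11 log2 (SE), or 1.33-fold (95% interval 0.18 to 0.64 log2, limma, adjusted p = 0.0319). This was 1 of 5 tested members, against 6.73% of all 14529 genes tested (2.70% higher and 4.03% lower in sacral), and the median difference was -0.31 over the 5 members and -0.05 over all genes. The Gfra4 call was lost without the donor block (limma, adjusted p = 0.146), with donor as a fixed term (0.064), without a filter (0.0802), without M5 and F7 together (0.153) and on leaving out M1 (0.0615), M3 (0.068), M5 (0.113), F3 (0.0575), F9 (0.0515) or F10 (0.107). The direction was the same in each of these fits.

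Gfra1, the receptor of GDNF, reached 9.01 RPKM in lumbar (median 2.66 log2 RPKM) and 7.83 RPKM in sacral libraries (median 2.20 log2 RPKM). Its difference was -0.34 ± 0.22 log2 (SE, 95% interval -0.79 to 0.11, limma, adjusted p = 0.345), with the sacral library lower in 8 of 10 embryos. Gfra2, the receptor of neurturin, ranged from 13.4 to 35.8 RPKM in lumbar and from 9.29 to 37.8 in sacral libraries and differed by -0.16 ± 0.16 log2 (interval -0.50 to 0.18, adjusted p = 0.567), with sacral lower in 8 of 10 embryos. Gfra3, the receptor of artemin, ranged from 11.9 to 33.9 RPKM in lumbar and from 4.90 to 32.2 in sacral libraries and differed by -0.33 ± 0.23 log2 (interval -0.80 to 0.14, adjusted p = 0.382), with sacral lower in 6 of 10. For all 3 the lumbar and sacral ranges overlapped widely, and the intervals still allow a fall of up to 0.79, 0.50 and 0.80 log2. With sample weights, Gfra1 passed the threshold as lower in sacral DRG (difference -0.45, limma, adjusted p = 0.0468). That fit called 3064 of the 14529 genes, against 978 in the main fit. It gave the least weight to the libraries that stood apart (0.29 to 0.47), followed by sacral M7 (0.63). M7 and F8 were the 2 embryos with the higher Gfra1 in the sacral library.

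Ret, the shared signalling receptor, had the highest RPKM of the members, with 1444 to 15825 reads per library. In lumbar males it stood at 49.8 RPKM (M1), 59.6 (M3), 20.6 (M5), 51.3 (M7) and 63.4 (M8), and in sacral males at 46.4, 46.9, 19.9, 58.9 and 41.4 RPKM. In lumbar females it stood at 63.4 RPKM (F3), 17.6 (F7), 19.9 (F8), 50.6 (F9) and 43.2 (F10), and in sacral females at 43.1, 8.52, 32.7, 32.2 and 28.4 RPKM. Both libraries of M5 and of F7 and the lumbar library of F8 were the 5 lowest, the same libraries that stood apart by their neuronal genes. Ret was lower in the sacral library of 8 of 10 embryos and higher in M7 and F8, with a difference of -0.31 ± 0.23 log2 (SE, 95% interval -0.78 to 0.17, limma, adjusted p = 0.424).

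**Figure D2:**
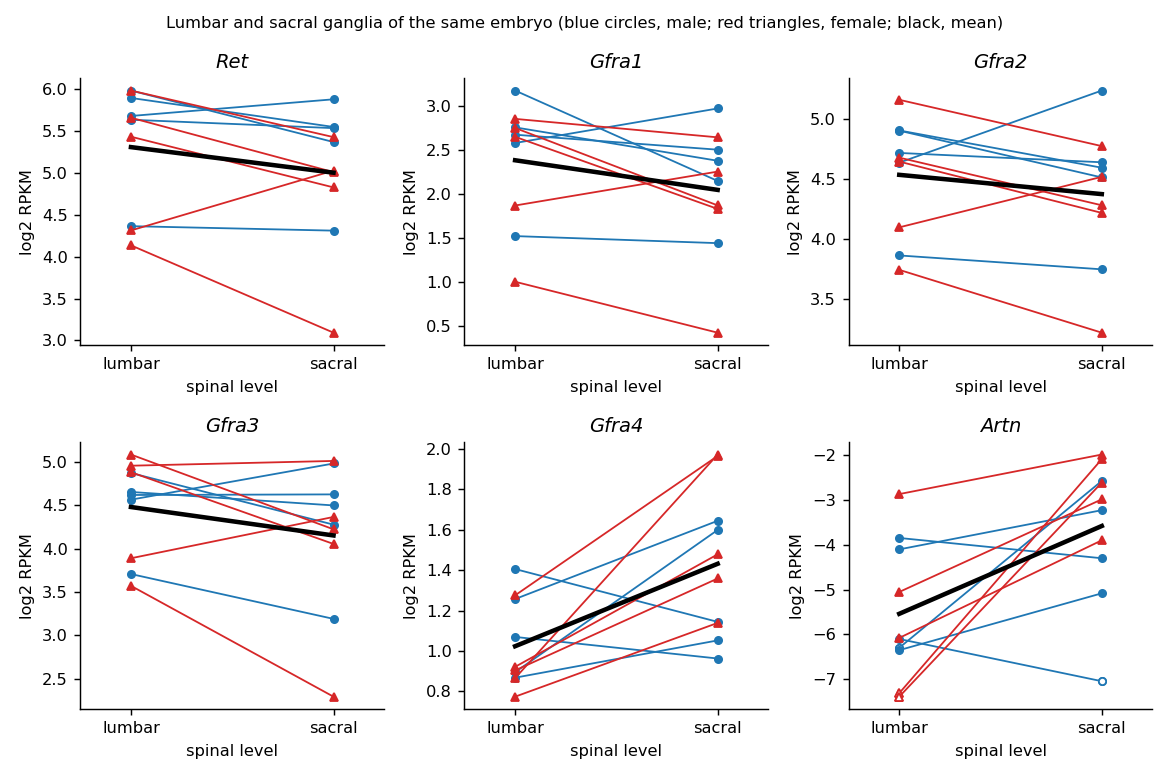
Level (log2 RPKM, vertical axis) of the 5 receptors and of Artn in the lumbar and sacral ganglia of each embryo, joined by a line. Blue circles are male, red triangles are female, the black line joins the means, and open symbols are 0 reads drawn at 0.5 reads. Most lines fall for Ret, Gfra1 and Gfra2 (8 of 10 embryos each), and most rise for Gfra4 and Artn (8 of 10 each).

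Ret, Gfra1, Gfra2 and Gfra3 followed the level of neuronal genes in the library, and for Gfra4 the relation passed at neither level. Against the mean of the 12 pan-neuronal genes, Pearson's r over the 10 lumbar libraries was 0.942 for Ret, 0.892 for Gfra1, 0.923 for Gfra2 and 0.964 for Gfra3 (permutation tests, 28 relations computed, adjusted p from 0.00119 to 0.00421), with Spearman's rho from 0.733 to 0.903 (adjusted permutation p from 0.00266 to 0.0273). Over the 10 sacral libraries r was 0.957, 0.938, 0.90 and 0.971 (adjusted permutation p from 0.000672 to 0.00255), with rho from 0.903 to 0.952. Without the 2 libraries farthest from the median, those of M5 and F8, the lumbar r was still at least 0.891, but without those of F7 and M5 the sacral r was 0.66 for Ret, 0.691 for Gfra1, 0.558 for Gfra2 and 0.842 for Gfra3, so the sacral relation of the first 3 rests in part on these 2 libraries. For Gfra4, r was 0.586 in lumbar (rho 0.442, adjusted permutation p = 0.0773 and 0.231) and 0.0968 in sacral libraries (rho -0.224, adjusted permutation p = 0.81 and 0.537).

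The same 4 receptors were lower where the mitochondrial ribosomal RNA share was high, with r from -0.894 to -0.925 in lumbar and from -0.743 to -0.802 in sacral libraries (adjusted permutation p at most 0.0122), and rho was between -0.733 and -0.927 (adjusted permutation p at most 0.0273). Without the 2 libraries farthest from the median share, r was between -0.852 and -0.938 in lumbar and between -0.771 and -0.814 in sacral libraries. For Gfra4, r with this share was -0.623 in lumbar (rho -0.685, adjusted permutation p = 0.0545 and 0.0418) and 0.281 in sacral libraries (rho 0.285, adjusted permutation p = 0.459 and 0.445). The 12 pan-neuronal genes themselves all had a negative difference, with a median of -0.28. Of these 12, 1 (8.33%), Snap25, was past the threshold, against 6.73% of all genes (4.03% as lower in sacral DRG). Centred on these genes, the differences were -0.04 for Ret, -0.07 for Gfra1, -0.06 for Gfra3 and 0.68 for Gfra4, and Gfra2 turned to 0.11, while the median of all genes moved from -0.05 to 0.22. Relative to that median, Gfra4 was higher by 0.46, a value that centring cannot change because it moves all genes of a library alike. Of the calls among all genes, 40.1% were higher in sacral DRG, against 51.6% after quantile normalization, 59.0% with library totals without mitochondrial ribosomal RNA and 81.1% when centred on the pan-neuronal genes. In bulk ganglia, fewer neurons of a type and less RNA per neuron cannot be told apart.

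**Figure D3:**
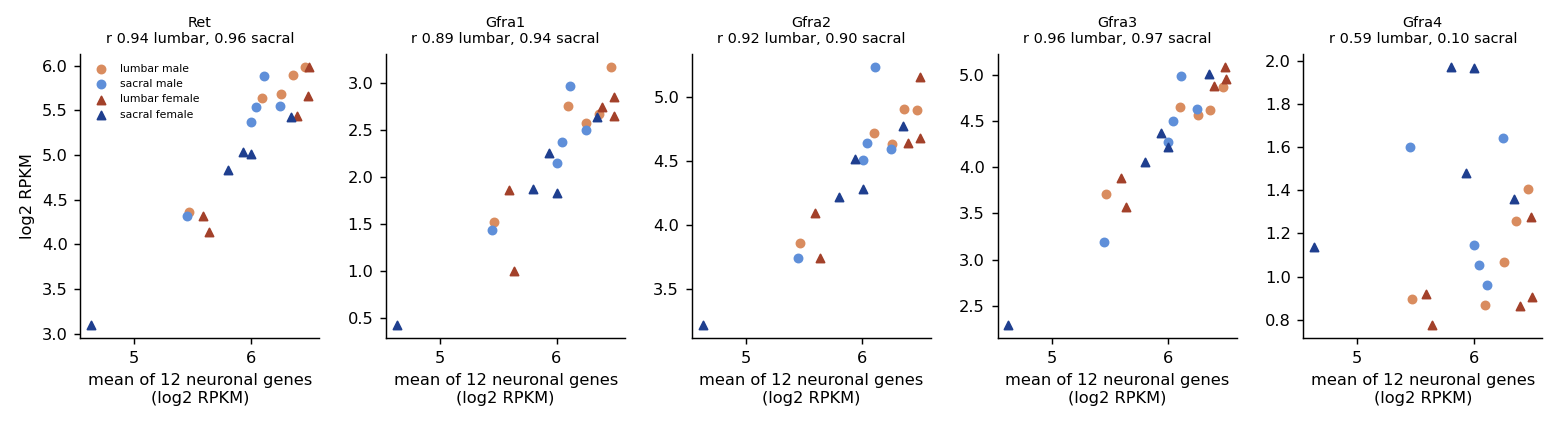
Level of each receptor (log2 RPKM, vertical axes) against the mean of 12 pan-neuronal genes (log2 RPKM, horizontal axes) in the 20 libraries, coloured by group. Ret, Gfra1, Gfra2 and Gfra3 rise with the neuronal mean, with r of at least 0.89 at either level, and the points of Gfra4 are scattered in sacral libraries.

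The ratio of 2 genes within a library does not depend on the scaling of that library. The mean ratio of Ret to Gfra1 was 7.62 in lumbar and 7.79 in sacral DRG, that of Ret to Gfra2 was 1.71 and 1.55, and that of Ret to Gfra3 was 1.78 and 1.81 (geometric means). None of the 6 ratios among Ret, Gfra1, Gfra2 and Gfra3 passed the test between levels (0 of 6 at an unadjusted p under 0.05 in the exact sign-flip test over 10 embryos). The largest shifts were those of Gfra1 against Gfra2, at -0.18 ± 0.27 log2 (SD, n = 10, exact p = 0.0742, adjusted 0.264), of Gfra2 against Gfra3, at 0.17 ± 0.37 (exact p = 0.182, adjusted 0.363) and of Ret against Gfra2, at -0.14 ± 0.23 (exact p = 0.0879, adjusted 0.264). The other 3 shifts were between -0.01 and 0.03. Of the summed RPKM of the 4 co-receptors, Gfra2 made up 43.9% ± 3.2 (SD, n = 10) in lumbar and 45.3% ± 3.5 in sacral libraries, Gfra3 42.2% ± 3.4 and 39.1% ± 5.4, Gfra1 9.94% ± 1.5 and 9.01% ± 0.81, and Gfra4 3.99% ± 1.2 and 6.63% ± 3.4. That sum was 1.36 ± 0.27 times the level of Ret in lumbar and 1.45 ± 0.27 times in sacral libraries (SD, n = 10).

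**Figure D4:**
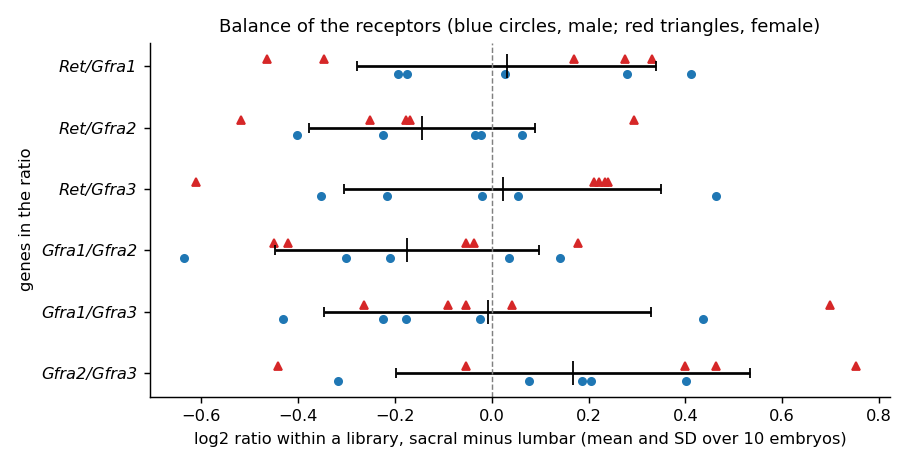
Change of the log2 ratio between 2 receptors from the lumbar to the sacral library of each embryo (horizontal axis), for 6 pairs of genes. Points are embryos (blue circles male, red triangles female), and the black bar is the mean with its SD. Every bar spans 0, and the means lie between -0.18 and 0.17.

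The sexes did not differ detectably in any receptor. Female minus male was -0.41 ± 0.40 log2 (SE) for Ret, -0.32 ± 0.38 for Gfra1, -0.14 ± 0.29 for Gfra2, -0.01 ± 0.39 for Gfra3 and -0.15 ± 0.19 for Gfra4 in lumbar DRG (limma, adjusted p at least 0.857), where 0.33% of all genes were called. In sacral DRG it was -0.65 ± 0.40, -0.48 ± 0.38, -0.35 ± 0.29, -0.33 ± 0.39 and 0.30 ± 0.19 in the same order (limma, adjusted p at least 0.433), where 1.01% of all genes were called, 0.723% as lower in females. At either level 0 of 5 receptors passed even at an unadjusted p under 0.05. Gfra4 rose from lumbar to sacral by 0.18 ± 0.39 (SD, n = 5) in males and by 0.63 ± 0.29 in females. This difference between the sexes was 0.45 ± 0.22 (SE, limma, adjusted p = 0.995) and did not pass. No gene passed that interaction (0 of 14529, or 0%, against 470 at an unadjusted p under 0.05), and the same held in all 24 other limma fits.

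Of 43 further genes of the GDNF and RET pathway, 33 were tested, and 4 were higher and 2 lower in sacral DRG, or 18.2% against 6.73% of all genes. Their median difference was -0.01, against -0.05 over all genes. Among the 4 tested surface proteins (6 listed), Gas1, a relative of the GFRα proteins that binds RET and is also a hedgehog co-receptor, rose by 0.89 ± 0.18 log2 (SE, limma, adjusted p = 0.00588), from 2.15 ± 0.51 (SD, n = 10) to 3.04 ± 0.43 log2 RPKM, and was higher in 9 of 10 embryos. Ncam1, an adhesion molecule that can serve as a GDNF receptor without RET, differed by 0.15 ± 0.16, Sorl1, a sorting receptor, by 0.14 ± 0.17, and Sdc3, a heparan sulphate proteoglycan that binds GDNF, by -0.03 ± 0.15.

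Among 15 tested adaptors of 19, 3 passed. Frs2, a docking protein of RET and of fibroblast growth factor receptors, rose by 0.23 ± 0.06 log2 (SE, limma, adjusted p = 0.025) and was higher in all 10 embryos. Grb10, an adaptor that binds RET and the insulin receptor, rose by 0.43 ± 0.11 (adjusted p = 0.0225, 9 of 10 embryos). Dok4, a docking protein phosphorylated by RET, fell by 0.52 ± 0.15 (adjusted p = 0.036, lower in 9 of 10). Of the others, the largest differences were those of Shc3, a neuronal adaptor, at -0.41 ± 0.20, of the kinase Src at 0.25 ± 0.16 and of Shc2 at -0.23 ± 0.14. None of the 8 tested negative regulators of 9 passed (1 of 8, Dusp6, at an unadjusted p under 0.05). Dusp6, a phosphatase of ERK, differed by -0.37 ± 0.14, Spry4, an inhibitor of receptor tyrosine kinase signalling, by -0.30 ± 0.15, and Rap1gap, which switches off the small GTPase Rap1, by -0.27 ± 0.16.

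Of 6 tested nuclear factors of 9, 2 passed. Maf, a transcription factor needed for the development of mechanoreceptors, rose by 0.24 ± 0.07 log2 (SE, limma, adjusted p = 0.04) and was higher in 9 of 10 embryos. Etv1, an Ets factor of proprioceptors, fell by 0.86 ± 0.14 (adjusted p = 0.000907, lower in 9 of 10). Etv5, an Ets factor induced by GDNF in other tissues, differed by -0.19 ± 0.13, Egr1, an immediate early gene, by 0.17 ± 0.12, and Runx1, the runt factor of non-peptidergic nociceptors, by -0.02 ± 0.14. Gas1 and Etv1 passed in each of the 24 other fits. Without M5 and F7 these 2 were the pathway genes that passed, as they were without the donor block. Frs2 did not pass without M1, M3, M5, F7, F9 or F10 (adjusted p from 0.0523 to 0.08), Grb10 without M5, F9 or F10 (0.0518 to 0.0773), Dok4 without any embryo but M3 and F8 (0.0549 to 0.104) and Maf without any but F8 (0.0519 to 0.12). Centred on pan-neuronal genes, Frs2, Grb10 and Maf did not pass (limma, adjusted p from 0.0597 to 0.0796), and without a filter Dok4, Grb10 and Maf did not (0.0554 to 0.0917). With donor as a fixed term Frs2 (limma, adjusted p = 0.063) and Maf (0.0606) did not pass, and Maf also did not with the mitochondrial ribosomal RNA share as a covariate (0.0509). For females against males, 2 of the 33 passed in sacral DRG, against 1.01% of all genes (0.723% as lower in females), where Cbfb, the partner of the runt factors, was lower in females by -0.72 ± 0.17 and Cd2ap, a scaffold protein that binds the ubiquitin ligase Cbl, by -0.50 ± 0.11 (limma, adjusted p = 0.039 and 0.0275), and 0 of 33 passed in lumbar DRG (3 at an unadjusted p under 0.05). Both calls were lost on leaving out any of M1, M3, M7, M8, F8, F9 and F10, and that of Cbfb also without F7, with adjusted p from 0.0597 to 0.138. Centred on pan-neuronal genes neither passed (limma, adjusted p = 0.268 for Cbfb and 0.757 for Cd2ap), and Cd2ap also did not pass with library totals without mitochondrial ribosomal RNA (adjusted p = 0.101).

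**Figure D5:**
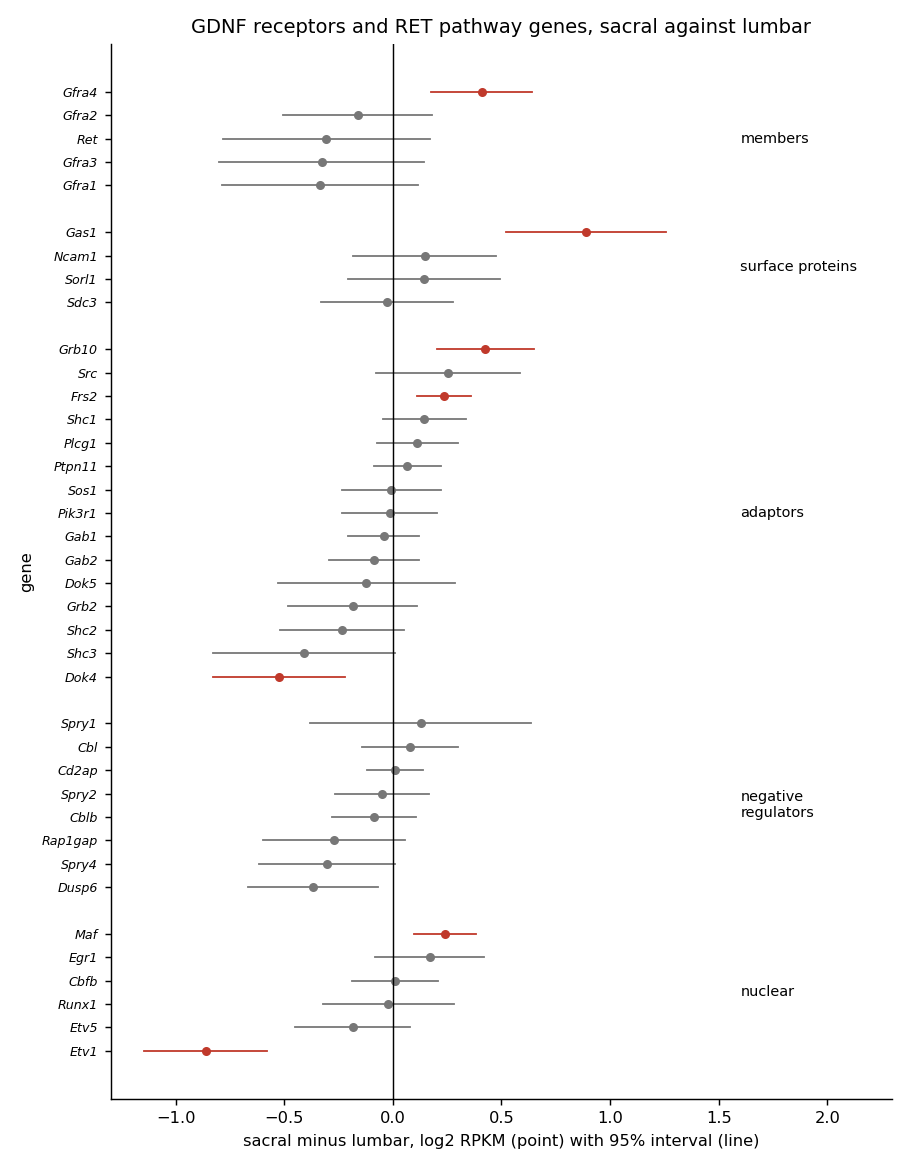
Sacral minus lumbar difference (log2 RPKM, horizontal axis) of the 5 tested members and 33 tested pathway genes, ordered within their role, with 95% intervals. Red marks genes with an adjusted p of at most 0.05: Gfra4, Gas1, Grb10, Frs2 and Maf were higher in sacral DRG, and Dok4 and Etv1 were lower.

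The neurons that use these receptors were followed through lists of marker genes. Of 6 tested genes of the non-peptidergic class, such as P2rx3 and Mrgprd, 0 passed in limma (median -0.24, 0 of 6 at an unadjusted p under 0.05). Of 7 peptidergic genes, 28.6% passed, against 6.73% of all genes. Trpv1, the capsaicin receptor, rose by 0.70 ± 0.19 log2 and Tac1, the precursor of substance P, fell by 0.81 ± 0.11 (SE, limma, adjusted p = 0.0322 and 0.000196). The median of the 7 was -0.17, with 5 of the differences negative. Their summed level was lower in the sacral library of all 10 embryos, by 0.29 ± 0.19 log2 (SD). The summed level of the 12 pan-neuronal genes was lower in 9 of 10 embryos, by 0.34 ± 0.37 log2 (SD), so the fall was not particular to the peptidergic list. Of 9 genes of large myelinated neurons, 4 (Pvalb, Nefh, Nefm and Cntnap2) passed as lower in sacral DRG, against 4.03% of all genes. The other 5 did not pass, among them Spp1 at 0.70 ± 0.35 and Ntrk2 at 0.28 ± 0.13, and the median of the 9 was -0.43. Of 13 glial genes 7 were lower (4.03% of all genes were), among them the myelin gene Mbp at -0.58 ± 0.08, and all 13 differences were negative. Of 10 fibroblast genes 5 were higher (2.70% of all genes were), with a median of 0.56, among them Pdgfra at 0.62 ± 0.14, and their sum was higher in the sacral library of 9 of 10 embryos, with ranges of 236 to 519 RPKM in lumbar and 317 to 687 RPKM in sacral libraries. The sum of the endothelial genes was also higher in 9 of 10 embryos, with Cdh5 and Tek called higher of 5 tested genes and a median of 0.00601. Pecam1 was at -0.11 ± 0.17, Kdr at -0.04 ± 0.16 and Emcn at 0.01 ± 0.12. Cdh5 had a mean of 4.83 log2 RPKM, against at most 2.12 in the other tested genes, so the sum rests largely on it. The sum of the cartilage genes was higher in 9 of 10, with Col2a1 called higher of 4. The summed levels of these 3 lists thus differed in the direction of Gfra4, Artn and Gas1 in 9 of 10 embryos each, and their part in those differences was not tested. Of the tested genes, 0 of 10 skeletal muscle, 0 of 5 smooth muscle, 0 of 4 erythroid, 0 of 4 macrophage and 0 of 6 proliferation genes passed.

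The genes whose levels were most like those of the receptors were named by Pearson's r among tested protein-coding genes other than the members, as a description. Over the 20 libraries, which are pairs from 10 embryos, Ret was most like Lrrn1 (r = 0.996), Dpp6 (0.994) and Syt11 (0.991). Gfra1 was most like Gcnt2, Susd2 and Rgmb (0.972 to 0.974), Gfra2 like Lrrc8c, Pcdh1 and Sez6l2 (about 0.986), and Gfra3 like Ngfr, the low-affinity neurotrophin receptor (0.982), Tuba1a (0.975) and Tmem50b (0.974). All 12 of these genes also had an r of at least 0.898 with the pan-neuronal mean. Gfra4 was most like 1700030K09Rik (0.791), Ankrd42 (0.694) and Smarce1 (0.669). Among the members, r over the 20 libraries was between 0.943 and 0.967 for Ret, Gfra1, Gfra2 and Gfra3 and between -0.08 and -0.01 for Gfra4 with each of them. These values pool both levels. Within lumbar libraries Gfra4 against Ret had r 0.604 and rho 0.697 (permutation tests, adjusted p = 0.0605 and 0.0378), and r 0.468 without F7 and F8. Within sacral libraries r was -0.106 and rho -0.394 (adjusted permutation p = 0.81 and 0.283), and r was -0.799 without F7 and M5. Over the 10 differences between the levels of an embryo, Ret was again most like Lrrn1 (0.991) and Dpp6 (0.984), then Rtn4rl1 (0.978). Gfra1 was most like Arhgap1 (0.977), Pkm2 (0.971) and Ikbkap (0.971), Gfra2 like Adam23 (0.983), Ptprf (0.982) and Lrrc8c (0.981), and Gfra3 like Klf13 (0.973), Rangap1 (0.961) and Diras2 (0.958). Gfra4 was most like Srbd1 (0.985), Map3k4 (0.937) and Ica1 (0.897). High values of r were common for Ret, Gfra1, Gfra2 and Gfra3. For Ret 5% of all such genes had an r above 0.922 over the 20 libraries, and for Gfra3, the lowest of these, above 0.899. For Gfra4 the same share had an r above 0.324 over the 20 libraries and above 0.479 over the 10 differences. Each gene named is the highest of many compared over few embryos.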

How the data were processed

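Total RNA was extracted from whole ganglia, amplified as cDNA and sequenced on an Illumina instrument. The authors aligned the reads to mm9 with Subread, counted uniquely mapped reads per Ensembl gene with featureCounts, scaled the libraries by TMM (edgeR) and applied the voom transformation of limma. The deposited table holds log2 RPKM. The submitters' processing notes also list GRCh37.p7, with no role given. Whether counting used strand is not given in the sources used here.

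Reads were recovered from the steps of the deposited log2 RPKM values with the summed exon length of GENCODE M1, and 98.3% of them were whole to within 0.05 reads. A blank was read as 0 reads and set to 0.5 reads. Groups, sex and embryo came from the sample labels. All 20 libraries entered 1 limma model (version 3.58.1, in R 4.3.3 with statmod 1.5.0) with 4 group means, donor as a block by duplicateCorrelation (correlation 0.342), eBayes with trend and Benjamini-Hochberg adjustment over the 14529 genes whose mean reached 1 RPKM in at least 1 group, at a threshold of 0.05. The script was tested on simulated data. Members below the filter, the order of levels and the ratios of receptors were tested by exact two-sided sign-flip permutation over the 10 embryos (Python 3.11.15), and correlations by 100000 permutations. The pairing comes from the embryo code of the labels, and the lumbar and sacral libraries of an embryo deviated from their group means with correlations from -0.17 to 0.68 over genes. The highest were those of M5 (0.68) and F7 (0.65), and the own partner was the best match for M1, M5, F3 and F7 only. The block correlation was 0.0938 without M5 and F7 and 0.0879 with the mitochondrial ribosomal RNA share as a covariate. No 2 libraries of a group agreed within sampling noise. Nothing further says how the 5 embryos of a group relate, so p-values measure the spread between these embryos.

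The members and the gene lists were chosen with earlier results of these data known. Named are all 9 members, every pathway gene past the threshold with up to 3 others of each role by size of difference, and for each receptor the 3 most similar genes. Promoters are from RefSeq. Protein sequences were not used here, and 2 genes of the fixed lists are not reported here and were left out of all list counts. Alternatives tried were other donor models, filters, pseudocounts, weights, scalings and the mitochondrial ribosomal RNA share as a covariate, and each embryo left out. Leaving out M5 and F7 together was added after seeing the data.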

Additional observations from a re-analysis of the deposited data

Results flagged for a closer look

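In 36 groups of 5 libraries (9 genes in 4 groups), 6 values lay far from the others of their group by Dixon's test, which flags about 1 group in 20 by chance. The lumbar library of M5 was low for Ret at 4.36 log2 RPKM (the other lumbar males were between 5.64 and 5.99), for Gfra2 at 3.86 (others 4.64 to 4.91) and for Gfra3 at 3.71 (others 4.56 to 4.87). This library had a pan-neuronal mean of 5.47 log2 RPKM and the highest mitochondrial ribosomal RNA share, 61.1%, and the part of either in these values was not tested. The sacral library of F7 was low for Ret at 3.09 log2 RPKM, with the other sacral females between 4.83 and 5.43, and it had the lowest pan-neuronal mean of all libraries, 4.63. Pspn was high in both libraries of F9, with 8 reads in the lumbar library (the other lumbar females had 0 to 2) and 9 in the sacral library (the other sacral females had 0 or 1).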

How the results depend on the processing

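The number of genes called between levels (978) was 154 with no replicate block, 507 without a filter, 3064 with sample weights and 261 without donors M5 and F7, and between 401 (without F10) and 1594 (without F8) on leaving out 1 donor. With no replicate block the Gfra4 call was lost (adjusted p = 0.146), the sexes gave 43 genes in lumbar and 152 in sacral DRG, 2 pathway genes passed in place of 6 between levels, and Cbfb did not pass between the sexes in sacral DRG (0.0531). The pathway count was 4 with the replicate block as a fixed donor term, 3 without a filter, 2 without M5 and F7 and between 2 (without M5, F9 or F10) and 6 (without F8) without 1 donor. The female against male counts (48 in lumbar and 147 in sacral DRG) were 197 and 751 with sample weights, 91 and 346 after quantile normalization, 21 and 50 when centred on pan-neuronal genes and 228 and 705 with the mitochondrial ribosomal RNA share as a covariate. The sacral count was 94 without a filter and 329 without M5 and F7, and without 1 donor the counts ranged from 14 to 81 and from 55 to 443. Of the members below the filter, 1 (Artn) had an unadjusted p under 0.05 in the exact sign-flip test. Without M5 and F7, 0 did (exact permutation p = 0.0547 for Artn). The cause of these changes was not tested.

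Gfra4 kept its direction in 24 of 24 alternatives and its call in 14, with differences from 0.29 to 0.68 and adjusted p from 0.00463 to 0.153. Signs that turned all belonged to differences that passed no test. Centred on pan-neuronal genes, Gfra2 between levels turned to 0.11 and the interactions of Gfra1 and Gfra2 to 0.0536 and 0.0164. Female minus male Gfra3 in lumbar DRG turned to 0.17 with sample weights, 0.0237 after quantile normalization, 0.0629 with totals without mitochondrial ribosomal RNA, 0.000813 when centred on pan-neuronal genes, 0.0497 with the covariate and 0.0257 without M5 and F7. Gdnf between levels turned to -0.10 with 0.1 RPKM added and -0.47 without M5 and F7, where the ratio of Ret to Gfra3 turned to -0.0595. Without 1 donor the values ranged from -0.33 to 0.0405 for Gfra2 and -0.20 to 0.22 for Gfra3 between the sexes in lumbar DRG, from -0.61 to 0.10 for Gfra3 in sacral DRG, from -0.44 to 0.54 for Gdnf and -0.57 to 0.018 for Nrtn between levels, and, for the shift of a ratio, from -0.0114 to 0.0861 for Ret to Gfra1, -0.0269 to 0.0926 for Ret to Gfra3 and -0.0875 to 0.0382 for Gfra1 to Gfra3. Without division by gene length the order was the same among the receptors, while Gdnf and Artn moved above Pspn. Gfra2 and Gfra3, not separated in RPKM, then differed by 0.96 ± 0.20 log2 (SD, n = 10, exact sign-flip test, adjusted p = 0.0031). The ligands are limited by depth, at 11 to 167 reads over all 20 libraries.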
